A study of Caenorhabditis elegans with 8 samples.

Results

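The transcription factor genes *hlh-1*, *unc-120* and *hnd-1*, which set body wall muscle fate, and *pha-4*, *ceh-22* and *tbx-2*, which act in the pharynx, the feeding organ, were followed through the life of *Caenorhabditis elegans*. They were taken by name from a deposited table of 25509 genes, in which all 6 were found and all 6 passed the filter on low values.

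In the worm embryo a few transcription factors turn uncommitted cells into muscle or pharynx. *hlh-1*, the worm counterpart of MyoD, *unc-120*, a gene of the serum response factor family, and *hnd-1*, a HAND-type basic helix-loop-helix gene, act together in the embryonic muscle lineages. *pha-4*, a FoxA gene, is the organ selector of the pharynx, *ceh-22*, an NK-2 type homeobox gene, acts in pharyngeal muscle where it activates the myosin gene *myo-2*, and *tbx-2*, a T-box gene, is needed for anterior pharyngeal muscle.

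All groups were whole wild-type worms (strain Bristol N2), with no genetic change or drug, at 1 of 4 stages. Mixed-stage embryos were collected after hypochlorite treatment of grown cultures. For the later groups, eggs hatched at 20 °C without food and larvae were then cultured in liquid medium. L1-L2 samples joined mid-L1, mid-L2 and L1/L2 molting animals taken between 6 and 20 hours of culture, in volume parts of 5, 5 and 2. L3-L4 samples joined mid-L3, mid-L4 and L3/L4 molting animals from 28 to 42 hours in the same parts, and young adults were taken at 50 to 54 hours. The RNA of every stage was read as total RNA and as dsRIP RNA, the part bound by the J2 antibody against double-stranded RNA.

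The labels give 8 samples, 1 per stage and molecule, and the table holds 3 numbered columns for each. The labels do not say whether these columns are separate cultures or technical repeats. Each sample therefore counts as 1 replicate, SDs are over its 3 columns, and p-values over columns measure only the spread between columns, which may be technical. Levels are FPKM, the authors' counts of fragments relative to gene length and sequencing depth. The reads behind the table numbered 348064 to 914442 per column. Muscle and pharynx were not dissected, and in whole worms fewer cells of a type and less RNA per cell cannot be told apart.

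All 6 regulators had their highest mean level in embryos, in total RNA and in dsRIP RNA alike. In embryo total RNA *unc-120* was the most abundant at 79.2 ± 6.84 FPKM (SD over 3 columns), which put it above 90.5% of the tested genes. *hlh-1* followed at 51.9 ± 9.41 FPKM, and its columns did not overlap those of *unc-120*. Next came *tbx-2* at 38.7 ± 6.98, *pha-4* at 31.8 ± 8.05 and *hnd-1* at 22.6 ± 6.19 FPKM, each overlapping the gene above it in this order across columns. *ceh-22* was the lowest at 9.29 ± 2.87 FPKM, with all 3 of its columns below all those of the other 5 genes.

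*hlh-1* (B0304.1, chromosome II, 4519065 to 4522434 in ce10) stood at 50.0, 43.5 and 62.0 FPKM in the 3 embryo columns of total RNA. L1-L2 larvae had 20.8, 0 and 18.3 FPKM, L3-L4 larvae 5.70, 13.8 and 6.84, and young adults 3.74, 5.77 and 5.93. Every embryo column lay above every later column, and the 3 later stages overlapped each other. The mean was 25.2%, 17.0% and 9.93% of the embryo mean at the 3 later stages in turn. In dsRIP RNA the embryo columns of *hlh-1* held 44.2, 44.1 and 80.7 FPKM, against 18.9, 17.2 and 9.31 in L1-L2 larvae. The later dsRIP columns held 7.98, 8.11 and 9.94 FPKM at L3-L4 and 0, 4.3 and 2.30 in young adults, so the embryo stood apart there too.

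The 0 of *hlh-1* in L1-L2 total RNA column 2 set much of the spread of that stage. Columns 1 and 3 held 31 reads together, and at their rate 8.29 reads were due in column 2. Of 6904 genes with at least as many reads in columns 1 and 3, 13 were at 0 in column 2. Without column 2 the L1-L2 mean of *hlh-1* was 19.6 FPKM. The whole *hlh-1* span lies inside that of *cyp-23A1* (II, 4512207 to 4522763), which was also at 0 in that column. In the embryo columns of total RNA *cyp-23A1* had 81, 54 and 50 reads where *hlh-1* had 39, 30 and 33. In young adults it had 3, 3 and 5 reads in total RNA where *hlh-1* had 3, 3 and 4, and both had 0, 2 and 1 in dsRIP RNA. Whether counting used the strand is not stated, so reads of these overlapping genes cannot be told apart and the levels of *hlh-1* are uncertain to that extent. For the same reason the 0 of *cyp-23A1* cannot be taken as a separate observation.

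*unc-120* (D1081.2, chromosome I, 8460218 to 8463008) stepped down at each stage. Its total RNA columns held 76.4, 74.3 and 87.0 FPKM at the embryo stage, 58.0, 39.4 and 40.4 at L1-L2, 32, 31.2 and 26.8 at L3-L4 and 11.35, 4.77 and 11 in young adults. No 2 stages overlapped in total RNA. The means were 58.0%, 37.9% and 11.4% of the embryo mean in that order. In dsRIP RNA *unc-120* held 65.4, 34.5 and 57.2 FPKM at the embryo stage, 31.3, 26.4 and 21.2 at L1-L2, 17.2, 20.1 and 14.8 at L3-L4 and 6.94, 7.11 and 9.49 in young adults. Again no 2 stages overlapped.

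*hnd-1* (C44C10.8, chromosome X, 11684637 to 11685712) was read almost entirely in embryos. It held 24.5, 27.6 and 15.7 FPKM in the embryo columns of total RNA and 25, 27.6 and 20.6 in those of dsRIP RNA, from 39 and 25 reads. All 12 columns of L1-L2 and L3-L4 larvae, both molecules together, had 0 reads. With 3 reads per sample put in place of 0, the embryo level in total RNA was at least 12.9-fold higher than in L1-L2 larvae and at least 14.7-fold higher than in L3-L4 larvae. In dsRIP RNA it was at least 8.69-fold and 12.1-fold higher than in the same larvae.

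In young adults *hnd-1* had reads in column 3 alone, 3 in total RNA (5.29 FPKM) and 2 in dsRIP RNA (5.47 FPKM). The list of early embryonic cell regulators summed to 115, 151 and 217 FPKM in young adult total RNA columns 1 to 3, and that of germline and early embryo genes to 684, 825 and 1108 FPKM. In dsRIP RNA column 3 was the lowest of the 3 for both lists, with 163, 133 and 110 FPKM for the first and 845, 850 and 756 for the second. The part of embryos or germ cells in the adult *hnd-1* reads was not tested.

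*pha-4* (F38A6.1, chromosome V, 20752904 to 20760282) held 32.1, 23.6 and 39.6 FPKM in embryo total RNA and 12.0, 16.8 and 13.4 FPKM in L1-L2 larvae. It held 5.51, 3.31 and 5.25 FPKM at L3-L4 and 1.64, 2.53 and 5.21 in young adults. Embryos, L1-L2 larvae and the 2 oldest stages formed 3 separate levels, and L3-L4 larvae overlapped young adults. The dsRIP columns of *pha-4* held 19.4, 21.4 and 50.6 FPKM at the embryo stage, 6.23, 9.71 and 10.2 at L1-L2, 2.10, 6.41 and 1.75 at L3-L4 and 1.23, 2.83 and 3.02 in young adults. There the embryo stood apart, and L1-L2 larvae overlapped L3-L4 larvae.

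*tbx-2* (F21H11.3, chromosome III, 5130882 to 5136280) kept the largest share of its embryo level among the 6 genes in young adult total RNA, 17.7% of the mean. Its total RNA columns held 41.2, 30.8 and 44 FPKM at the embryo stage, 19.7, 18.2 and 16.6 at L1-L2, 18.0, 11 and 16.8 at L3-L4 and 6.12, 3.14 and 11.301 in young adults. Embryos stood above all later columns, while each later stage overlapped the next. In dsRIP RNA *tbx-2* held 36.8, 30.3 and 26.7 FPKM at the embryo stage, 19.3, 13.4 and 21.6 at L1-L2, 9.56, 10.6 and 4.33 at L3-L4 and 4.57, 2.34 and 1.25 in young adults. There L3-L4 larvae overlapped young adults, and the other stages stood apart.

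*ceh-22* (F29F11.5, chromosome V, 10672437 to 10675623) was close to the limit of these libraries after the early larva. It held 7.72, 12.6 and 7.54 FPKM in embryo total RNA and 5.13, 9.57 and 3.06 FPKM in L1-L2 larvae, and these stages overlapped. At L3-L4 it held 0.762, 2.52 and 1.14 FPKM and in young adults 1.67, 0 and 0. The reads behind these stages numbered 28, 16, 5 and 2, so the young adult level had a Poisson 95% interval of 0.0811 to 2.42 FPKM, which covers counting error only. In dsRIP RNA the embryo columns held 10.9, 9.31 and 1.93 FPKM, L1-L2 larvae 3.16, 0 and 1.56, L3-L4 larvae 2.13, 1.08 and 2.66, and young adults 0 in all 3, which allows up to 1.96 FPKM. The lowest embryo dsRIP column thus lay within the larval range. The noncoding gene F29F11.19 overlaps the start of the *ceh-22* span and had 2 reads over all 24 columns.

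**Figure D1:**
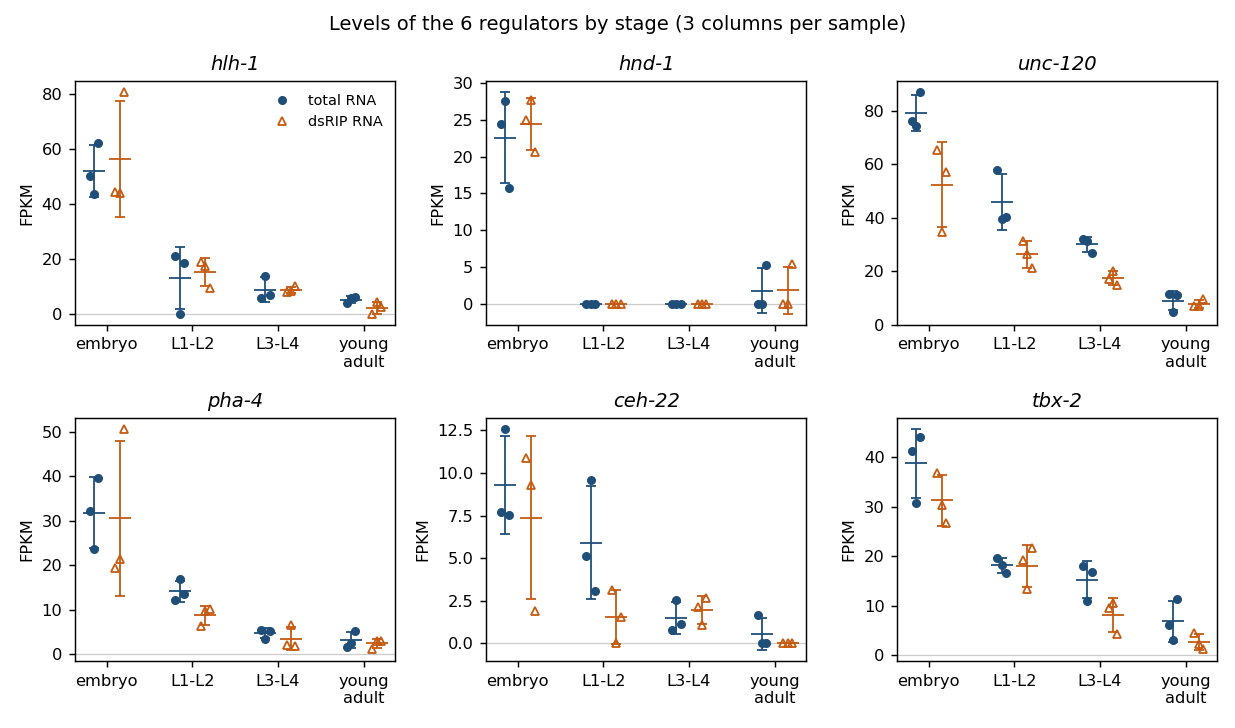
FPKM of each regulator (vertical axis, linear, own scale per gene) at the 4 stages (horizontal axis). Points are the 3 columns of a sample, filled circles for total RNA and open triangles for dsRIP RNA, and bars are the mean ± SD over columns. Embryo columns of *hlh-1*, *hnd-1*, *unc-120*, *pha-4* and *tbx-2* lie above all later columns of the same molecule, and those of *ceh-22* overlap L1-L2 larvae.

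The first comparison asked whether the embryo differed from the later stages. The 3 embryo columns lay above all 9 later columns for 5 of the 6 genes in total RNA, and for 5 of 6 in dsRIP RNA, *ceh-22* being the other one both times. Among all 20628 tested features the share was 13.8% in total RNA and 13.5% in dsRIP RNA. By sample means all 6 regulators were at least 2-fold higher in embryos than in the mean of the 3 later stages on the log2(FPKM + 1) scale, in both molecules, where 27.9% of tested features were in total RNA and 29.6% in dsRIP RNA. With 1 sample per stage this fold has no test. By the same rule, in either direction, 4 of the 6 differed between embryos and L1-L2 larvae in each molecule (54% of features in total RNA and 54.1% in dsRIP RNA), 2 between the larval stages (27.6% and 29.7%), and 3 in total RNA and 5 in dsRIP RNA between L3-L4 larvae and young adults (38.1% and 39.3%).

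Fitted over the single columns of total RNA with limma, all 6 regulators were higher in embryos at an adjusted p under 0.05, the Benjamini-Hochberg value over all features, against 22.4% of tested features (17.2% were lower). The log2 difference was 2.81 ± 0.81 (SE) for *hlh-1*, with an adjusted p of 0.0207 in limma. *unc-120* differed by 1.75 ± 0.23 (limma adjusted p 0.00036) and *hnd-1* by 4.23 ± 0.52 (limma adjusted p 0.000229), the last a value that depends on the 1 added to every FPKM. Among the pharyngeal regulators the log2 difference was 2.22 ± 0.29 for *pha-4*, 1.86 ± 0.43 for *ceh-22* and 1.6 ± 0.3 for *tbx-2*, with limma adjusted p of 0.000317, 0.00743 and 0.00223. In dsRIP RNA all 6 passed as well, against 20.7% of features, with log2 differences from 1.66 (*unc-120*) to 4.36 (*hnd-1*) and limma adjusted p up to 0.0171 (*ceh-22*). The total RNA call of *hlh-1* was lost without embryo column 1, 2 or 3, at limma adjusted p of 0.0684, 0.0584 and 0.0798 (4.83e-05 to 0.0798 over all alternatives), and the dsRIP call of *ceh-22* without embryo column 1 (0.0824) or 2 (0.0753), in a range of 0.00283 to 0.0824. For any difference among the 4 stages 5 of 6 passed in total RNA, *hlh-1* being the other, and 6 of 6 in dsRIP RNA, against 46.4% and 41% of features.

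The step from embryos to L1-L2 larvae was called for fewer genes. In total RNA *hnd-1* and *pha-4* were lower in the larvae over columns, 2 of 6 against 18.2% of tested features. The log2 step was -1.10 ± 0.35 for *pha-4* (limma adjusted p 0.0381). The values for *tbx-2* (-1.04, limma adjusted p 0.0524), *hlh-1* (-2.80, 0.0540) and *unc-120* (-0.79, 0.0575) lay just outside the threshold, and *ceh-22* stood at -0.65 (0.396). The count was 5 with equal medians, a pseudocount of 5 or voom, and 1 with quantile normalisation. Leaving out embryo column 1 or 3 left 1 call, and leaving out young adult column 2, which enters through the shared spread, gave 4. Without the L1-L2 column in which *hlh-1* was at 0, its step was -1.35 with a limma adjusted p of 0.0225 (0.00447 to 0.136 over all alternatives), and its test for any difference among the 4 stages went from an adjusted p of 0.0771 to 0.00072.

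In dsRIP RNA 4 of 6 regulators were lower in L1-L2 larvae than in embryos over columns, against 17.1% of features. They were *hnd-1*, *hlh-1* (log2 step -1.83, limma adjusted p 0.0369), *unc-120* (-0.94, 0.0232) and *pha-4* (-1.59, 0.0426). The count was 2 with a pseudocount of 0.5, no filter or quantile normalisation. Leaving out any embryo column, L1-L2 column 2 or 3, or L3-L4 column 1, in turn left 1 or 2 calls. None of the 6 was called between L1-L2 and L3-L4 larvae in either molecule, where 1.33% of features were called in total RNA and 1.18% in dsRIP RNA, and voom on whole reads called 0 of the 6 as well. At an unadjusted limma p under 0.05 this step was lower for *pha-4* (log2 -1.42) and *ceh-22* (-1.44) in total RNA, where 9.49% of features were, and for *pha-4* (-1.26) and *tbx-2* (-1.11) in dsRIP RNA, where 8.24% were.

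From L3-L4 larvae to young adults *unc-120* alone was called. It was lower by a log2 difference of -1.70 ± 0.29 in total RNA (limma adjusted p 0.00582) and of -1.05 ± 0.26 in dsRIP RNA (limma adjusted p 0.0300). The background of features called lower was 5.35% in total RNA and 3.84% in dsRIP RNA. With column number as a replicate block 2 regulators were called in total RNA, *tbx-2* being the other, and 0 in dsRIP RNA. Deviations of same-numbered L3-L4 and young adult columns correlated at r of 0.110 to 0.141 in total RNA and of -0.0202 to 0.0963 in dsRIP RNA. No range for other-numbered columns of these stages is given here, and whether such pairing bears on the counts was not tested. The dsRIP call also ended without L3-L4 column 1 or 2 and with a pseudocount of 5 or voom, the dsRIP count was 2 without L3-L4 column 3, and the total RNA count was 2 without young adult column 3. *tbx-2* was at -1.16 (limma adjusted p 0.0724) in total RNA, and *hnd-1* was at 0.88 (0.419), from the 3 reads of column 3.

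The genes that build muscle moved the other way at the embryo to larva step, as did most intestine and neuron markers. Of 13 body wall muscle contractile genes, 9 were higher in L1-L2 larvae than in embryos over total RNA columns and 1 was lower, and the median log2 difference of sample means was 1.33, against 0 over all features. *pat-10*, body wall muscle troponin C, went from 296 ± 37.4 FPKM in embryos to 746 ± 175 in L1-L2 larvae and 1081.5 ± 415 in L3-L4 larvae. *act-4*, an actin gene, held 503 ± 291 FPKM in embryos and 869 ± 192 in L1-L2 larvae and was not called (limma adjusted p 0.164). The 1 that was lower was *unc-45*, a chaperone for myosin, at 93.1 ± 3.45 FPKM in embryos and 61.4 ± 18.5 in L1-L2 larvae (limma adjusted p 0.0284), named after its values were seen. The share of features called in this step was 16.5% higher and 18.2% lower. In the same step 5 of 6 intestine markers were higher and 0 lower, and 4 of 6 neuron markers were higher and 1 lower. The rise was therefore not particular to muscle. Epidermis markers had 0 of 6 higher and 3 lower, and germline and early embryo markers 0 of 7 higher and 5 lower.

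Summed over the list, the contractile genes in total RNA stood at 273%, 305% and 220% of their embryo level at the 3 later stages in turn. Such a sum follows the most abundant genes. Its columns held 1371, 1636 and 2324 FPKM in embryos and 3179, 6107 and 2423 in young adults, so the adult value rests largely on column 2. At the 3 later stages *hlh-1* stood at 25.2%, 17.0% and 9.93%, and *unc-120* at 58.0%, 37.9% and 11.4%. The level per length of *unc-120* over that of *hlh-1* was 1.53 in embryos, 3.52 in L1-L2 larvae, where the *hlh-1* mean includes its column at 0, 3.42 in L3-L4 larvae and 1.76 at the adult stage. In dsRIP RNA the same ratio was 0.93 in embryos, 1.74 and 2.00 in the larval stages and 3.57 in adults. The adult dsRIP value rests on 3 reads of *hlh-1* and 12 of *unc-120*. Whether the molecules differ in where the ratio is highest was not tested.

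Pharyngeal muscle and gland genes showed the same opposite course early on. Of 11 such genes, 7 were higher in L1-L2 larvae than in embryos over total RNA columns and 0 lower, with a median log2 difference of 1.66. *tni-4*, a pharyngeal troponin I, went from 45.2 ± 10.4 FPKM in embryos to 133 ± 10.9 in L1-L2 larvae, then held 71.1 ± 22 at L3-L4 and 50.0 ± 5.47 in young adults. *phat-4*, a gene of pharyngeal gland cells, went from 24.3 ± 2.81 FPKM in embryos to 146 ± 40.4 and 271 ± 106 in the larval stages. The list sum stood at 337%, 261% and 102% of the embryo sum at the later stages, while *pha-4* stood at 44.3%, 14.8% and 9.85% and *tbx-2* at 47.0%, 39.4% and 17.7%. At L3-L4 the columns of that sum spread from 902 and 753 to 390 FPKM, with *phat-4* a large part of it.

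**Figure D2:**
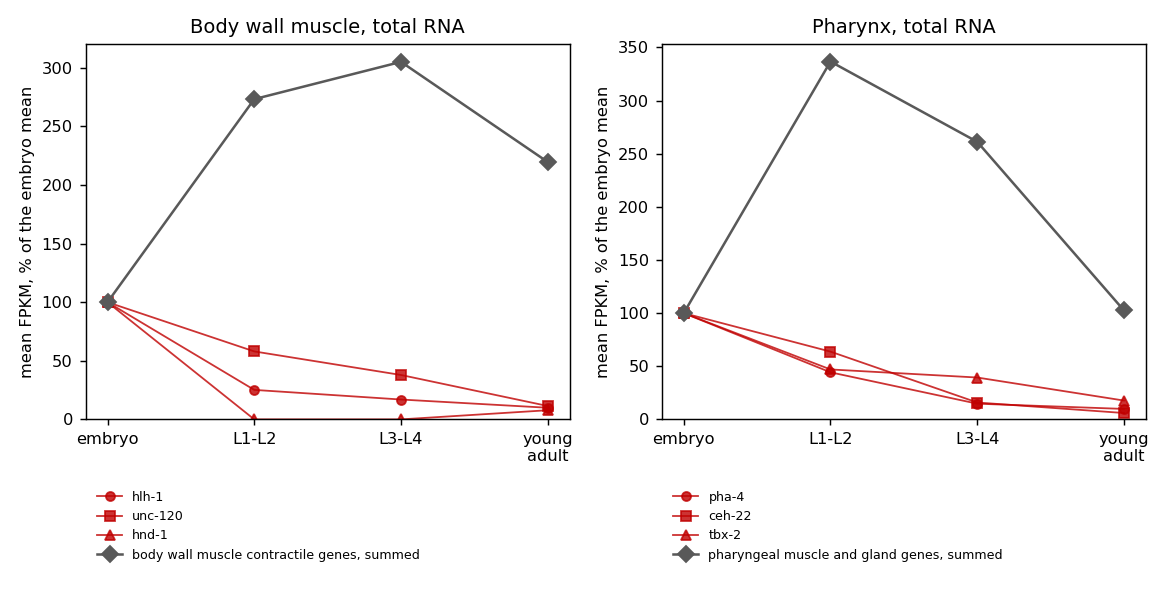
Mean FPKM in total RNA as a percentage of the embryo mean (vertical axis, linear from 0) at the 4 stages (horizontal axis), 1 sample per stage and no error shown. Red lines are the regulators and grey lines the summed FPKM of the contractile or gland genes of the same tissue. The contractile genes reach 305% in L3-L4 larvae and the pharyngeal genes 337% in L1-L2 larvae, while each regulator stays under its embryo level.

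Genes listed as regulators that act before or beside the 6 genes formed further lists. Of 11 early blastomere regulators, which act in the first embryonic cells, 10 were tested. Of these, *med-1*, *tbx-35*, *tbx-37* and *tbx-38* passed the filter through embryo samples alone and could hardly come out otherwise than higher there, so they are not counted. The other 6 were all called higher in embryos than in the mean of the later stages over total RNA columns, against 22.4% of features. This does not place each above every later stage. *glp-1* held 28.1 ± 5.72 FPKM in embryos and 30.7 ± 12.5 in young adults, and the rest had lower means in young adults than in embryos. *skn-1*, which specifies the mesendoderm, held 142 ± 9.64 FPKM in embryos and 87.7 ± 18.7, 48.7 ± 8.67 and 62.3 ± 10.9 in the later stages. *pop-1*, a TCF factor of Wnt signalling, held 116 ± 10.3 FPKM in embryos and 20.9 ± 6.98, 16.9 ± 8.19 and 19.4 ± 7.53 later.

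Of 17 genes listed as other transcription factors of mesoderm and pharynx, 12 were higher in embryos than later over total RNA columns and 1 lower (22.4% and 17.2% of features). The median log2 difference was 1.62, or 1.52 with 5 genes at their bounds. These data do not show that each listed gene, *pha-1* included, is such a factor. *pha-1* held 49.4 ± 3.11 FPKM in embryos and 39.5 ± 3.84, 29.1 ± 2.14 and 11.9 ± 4.11 in the later stages. *sem-2*, a SoxC gene, held 39.4 ± 8.79 FPKM in embryos and 20.3 ± 10.01, 16.4 ± 5.24 and 6.55 ± 2.53 later. The exception was *fozi-1*, which acts in the postembryonic mesoderm, which held 0.299 ± 0.52 FPKM at the embryo stage, 5.34 ± 0.95 at L1-L2, 13.5 ± 1.34 at L3-L4 and 1.52 ± 0.59 in young adults. It was named after its values were seen.

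Markers of other tissues differed in their course, over total RNA columns and beside 22.4% of features higher in embryos and 17.2% lower. By the same test 5 of 6 epidermis markers were higher in embryos than later and 0 lower, 4 of 6 intestine markers were lower and 0 higher, 1 of 6 neuron markers was higher and 2 lower, near the shares of all features, and 4 of 7 germline and early embryo markers were higher and 1 lower. The cuticle collagen *dpy-7* held 306 ± 33.6 FPKM in embryos and 32.8 ± 22.7 in L1-L2 larvae, and *ajm-1*, of the apical junction, 58.3 ± 13.7 and 36.7 ± 2.78. The intestinal protease *asp-1* held 134 ± 74.6 FPKM in embryos and 1585 ± 739 in L1-L2 larvae, and the intestinal filament gene *ifb-2* 87.0 ± 11.8 and 282 ± 22.8. The synaptic gene *snb-1* held 75.2 ± 27 and 81.8 ± 23.9 FPKM, and the neuropeptide convertase *egl-3* 9.07 ± 2.90 and 200 ± 16.6. The P granule helicase *glh-1* held 12.5 ± 3.08 FPKM in embryos and 209 ± 55.6 in young adults. *spn-4*, a maternal RNA-binding protein, held 155 ± 26.2 FPKM in embryos, 4.61 ± 2.67 and 12.5 ± 1.62 in the larval stages and 165 ± 115 in young adults. The contrast averages the 3 later stages, so a gene near its embryo level in young adults can still count as higher in embryos. The germline list summed to 204% of its embryo level in young adults, and its part in the low adult share of the 6 regulators was not tested.

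**Figure D3:**
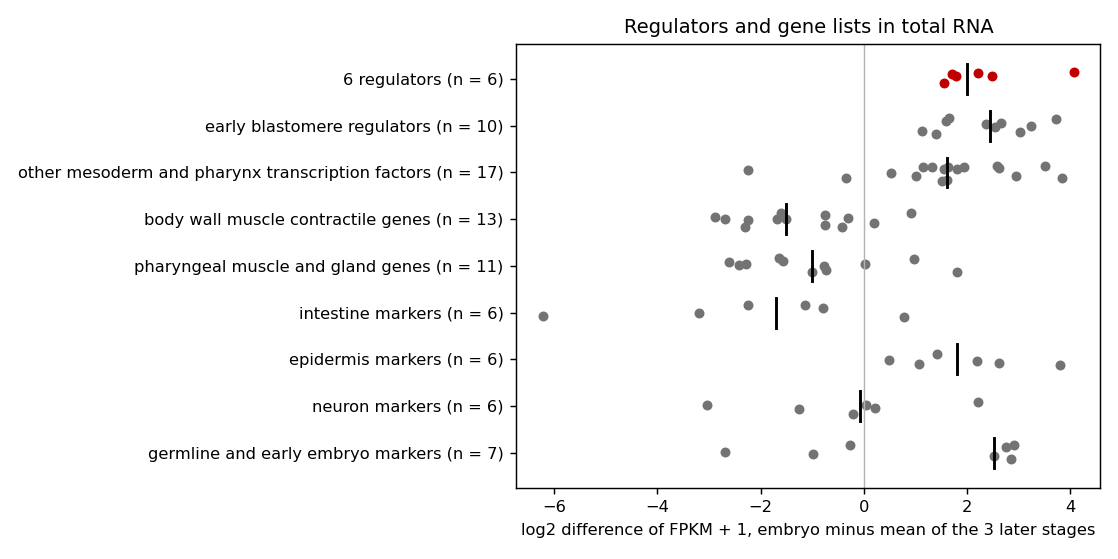
Log2 difference of FPKM + 1 in total RNA, embryo sample minus the mean of the 3 later samples (horizontal axis), for the 6 regulators (red) and 8 gene lists (grey). Each point is 1 tested gene and the black bar is the median of its list. All 6 regulators lie above 1, and the median is -1.50 for body wall muscle contractile genes and -0.999 for pharyngeal genes.

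The study paired each total RNA sample with dsRIP RNA, so the next comparison asked whether the regulators were more or less abundant after the pull-down. None of the 6 passed at a limma adjusted p under 0.05 over the 8 samples with stage as a block, where 873 of 20628 features did (4.23%). At an unadjusted limma p under 0.05 there was 1 regulator of 6, *unc-120*, beside 4760 of 20628 features, a share that 1 of 6 does not exceed. The log2 difference, dsRIP minus total, was -0.58 ± 0.13 (SE) for *unc-120*, with a 95% interval of -0.92 to -0.24 and a limma adjusted p of 0.0824. It was below 0 at all 4 stages, at -0.59, -0.78, -0.76 and -0.18 in the order of development.

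*unc-120* was the one regulator whose call depended on the test. Over the 24 single columns with stage as a block its limma adjusted p was 0.0156, and with voom on whole reads, an alternative added after the data were seen, it was 0.00889. Over all alternatives the adjusted p of *unc-120* ran from 0.00889 (voom) to 0.999981 (no stage block). Over all features voom called 3359, against 873.

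For the other 5 genes the interval of the dsRIP difference included 0. It ran from -1.11 to 0.00 for *tbx-2* (estimate -0.55, limma adjusted p 0.218), from -0.78 to 0.10 for *pha-4* (-0.34, 0.308) and from -1.43 to 0.38 for *ceh-22* (-0.53, 0.435). *pha-4* and *tbx-2* were below 0 at all 4 stages and *ceh-22* at 3. The values nearest 0 were -0.058 for *pha-4* in embryos and -0.0068 for *tbx-2* in L1-L2 larvae, each with column pairs on both sides of 0. The share of all features below 0 at all 4 stages is not given here, so these signs do not show a depletion. The interval was -0.75 to 0.43 for *hlh-1* (-0.16, 0.737) and -0.55 to 0.62 for *hnd-1* (0.03, 0.955), which had no reads at 2 of the 4 stages. The median of the 6 was -0.43, against -0.08 over all tested features.

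**Figure D4:**
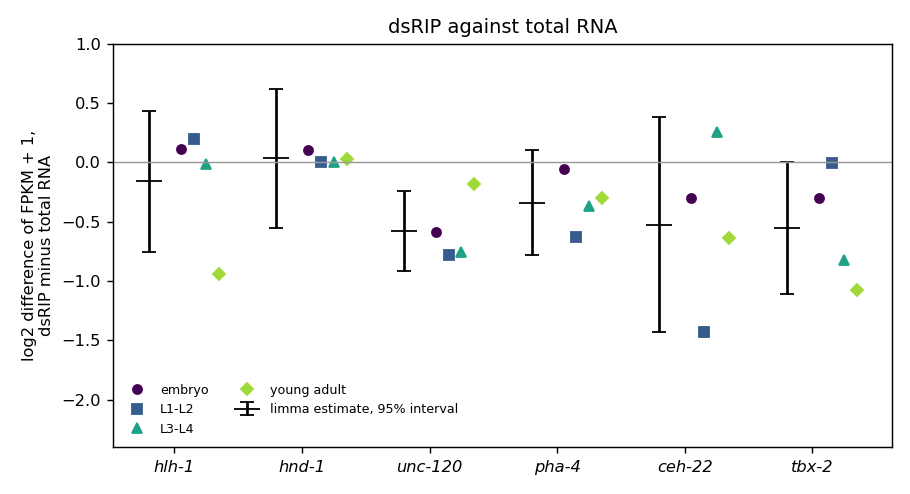
Log2 difference of FPKM + 1, dsRIP minus total RNA (vertical axis), for each regulator. Black bars are the limma estimate over 8 samples with its 95% interval, and coloured points are the 4 stages, each 1 pair of samples. The interval of *unc-120* runs from -0.92 to -0.24 and those of the other 5 genes include 0.

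Among the 76 tested genes of the 8 lists only *pat-10* was called, a smaller share than the 4.23% of all tested features. It was higher after the pull-down (log2 difference 0.62, limma adjusted p 0.0314). It held 503 ± 31.7 FPKM in dsRIP RNA of embryos against 296 ± 37.4 in total RNA, and 1736 ± 341 against 1081.5 ± 415 in L3-L4 larvae. The contractile genes had a median of 0.10 and the pharyngeal genes of 0.02. Whether the dsRIP difference itself changed between stages was tested over the 24 columns, and 0 of 6 regulators passed the limma F test, as did 1 of 20628 features (0.00485%). No regulator had an unadjusted p under 0.05 in that test, the lowest being 0.257 for *ceh-22*.

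The study located editing-enriched regions (EERs), stretches of genome with clustered A-to-I editing, a mark of double-stranded RNA. None of the 6 regulators overlapped an EER of the table, where 4.65% of tested genes did. None overlapped an EER of any deposited list or lay within 10 kb of an EER of the table. The share of tested genes that overlapped a deposited list or lay within 10 kb is not given here. Whether this absence is unusual was therefore not tested. The closest EER to *pha-4* was EA6_EER1488+, at 20779280 to 20779477 on chromosome V in ce10, 18998 bp away. The closest to *hlh-1* was EA6_EER494-, at 4496700 to 4497893 on chromosome II, 21172 bp away. It had 2.69 FPKM in total RNA and 14.7 FPKM in dsRIP RNA of embryos. The embryo dsRIP value was also the higher one for the nearest EERs of *pha-4*, *unc-120* and *ceh-22*. It was the lower one for that of *hnd-1*, and the nearest EER of *tbx-2* was at 0 in both molecules. No spread or test of these EER values is given here. The distance was 60062 bp for *tbx-2*, 185147 bp for *unc-120*, 241048 bp for *ceh-22* and 241335 bp for *hnd-1*.

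The 6 genes resembled one another over the 8 samples to differing degrees. Pearson correlations of log2(FPKM + 1) lay between 0.91 and 0.96 for the 10 pairs without *hnd-1*, and between 0.45 and 0.69 for its 5 pairs. These are descriptions over 8 samples from 4 stages, in which total RNA and dsRIP RNA of a stage share their worms, so a gene high in embryos correlates with any other.

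Among 16064 genes with at least 5 FPKM in 1 sample, those most like *unc-120* were *fhod-1* (r = 0.995), a formin of muscle, *unc-95* (0.992), a muscle attachment gene, and *hid-1* (0.992). Most like *hlh-1* were F33A8.7 (0.998), *mig-10* (0.996) and *toe-4* (0.994). Most like *hnd-1* were *kin-34*, *bath-31* and *sdz-18*, all at 0.998 or more. Most like *pha-4* were *atg-2*, C46C2.2 and *goa-1* (0.994 to 0.997), most like *ceh-22* were T06A4.1, *hpl-1* and *nhr-3* (0.979 to 0.988), and most like *tbx-2* were Y73B6BL.27, T28D9.1 and Y34B4A.10 (all 0.992). With Spearman's correlation 6 of these 18 genes were again among the 3 most alike.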

How the data were processed

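The FPKM values of 27050 features (25509 genes and 1541 EERs) in 24 columns were computed and deposited by the authors, per the file headers. Per the submitters' processing notes, Novoalign, bedtools 2.19.0, SAMtools 0.1.19 and build ce10 were used; the tool roles and use of strand in counting are not given in the sources used here. Libraries came from a stranded total RNA kit, per the labels' protocols. The score in the deposited EER lists is a whole number of unstated meaning and was not used beyond reading positions. Columns were mapped to samples by name, and 0 were left unmapped. For 1 sample titled L4-L4, the stage field (L3-L4) was used. Gene symbols came from a WBcel235 annotation for 25092 genes, and 417 had no match. From the smallest FPKM steps, whole reads were recovered for 99.9941% of values, within 0.05 of a whole number, and a median of 527607 reads per column.

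Features reaching 1 FPKM in 2 or more of the 8 samples were kept (20628, of which 19091 genes). limma 3.58.1 in R 4.3.3 (lmFit, eBayes with trend) was fitted on log2(FPKM + 1), which understates the change of low genes, and p-values were adjusted by Benjamini-Hochberg over all of these features (threshold 0.05). dsRIP and total RNA were compared over sample means with stage as a block. Stages were compared by a 2-fold rule on sample means, with no test, and over the 3 columns per sample. The fits were run on simulated data with independent noise per column and large planted changes in features that were not low. That run does not cover genes with few reads or variation between samples. A fold against 0 reads used a floor of 3 reads per sample. Intervals of single levels are Poisson, for counting error only. Promoter words and sequences were not analysed here.

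The 6 genes and the 8 lists were chosen with earlier results of these data known. The text names the 6 genes, the 3 genes most alike to each, the 2 most abundant genes of each list in total RNA, list genes called in dsRIP RNA and the nearest EERs. Also named are *unc-45*, *fozi-1* and *glp-1*, the list genes that passed the filter through embryos alone, and genes that overlap a regulator. Alternatives were quantile normalisation, equal medians, pseudocounts of 0.5 and 5, a filter of 10 or none, a fit without trend or without the stage block, single columns, a replicate block, a 4-fold rule, Spearman's correlation, and columns or stages left out. Over 10005 features with a mean FPKM of at least 10, deviations of same-numbered columns from their group means correlated over 0.1 in all 3 pairs for L3-L4 total and dsRIP RNA (0.132 to 0.235) and for L3-L4 and young adult total RNA (0.110 to 0.141), and not in the other pairs of groups. Added after the data were seen were voom on whole reads and, for dsRIP against total RNA, leaving out L1-L2 total RNA column 2 or young adult column 3.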

Additional observations from a re-analysis of the deposited data

How the results depend on the processing

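Over columns, the count called higher in embryos than in later stages was 6 under all alternatives but those leaving out an embryo column, 5 to 6 in either molecule. The count by the 2-fold rule in total RNA went from 6 to 3 with a 4-fold rule, and to 5 with a pseudocount of 5. From embryos to L1-L2 larvae the 2-fold count in total RNA went from 4 to 2 with a pseudocount of 5 or quantile normalisation and to 1 with the 4-fold rule (2 to 5 with 1 column left out), and in dsRIP RNA from 4 to 1 with the 4-fold rule. From L1-L2 to L3-L4 larvae it went from 2 to 0 with a pseudocount of 5 or the 4-fold rule in both molecules, and in dsRIP RNA also to 0 with equal medians or quantile normalisation (0 to 2 with 1 column left out). From L3-L4 larvae to young adults it went from 3 to 1 with a pseudocount of 5 and to 0 with the 4-fold rule in total RNA, and from 5 to 0 with either in dsRIP RNA.

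Over columns, the embryo to L1-L2 count in total RNA went from 2 to 5 with a pseudocount of 5, equal medians or voom and to 1 with quantile normalisation (1 to 4 with 1 column left out), and in dsRIP RNA from 4 to 2 with a pseudocount of 0.5, no filter or quantile normalisation (1 to 4 with 1 column left out). The L1-L2 to L3-L4 count in total RNA was 0 to 1 with 1 column left out. The L3-L4 to young adult count was 1 to 2 in total RNA and 0 to 2 in dsRIP RNA with 1 column left out, and in dsRIP RNA 0 with a pseudocount of 5 or voom. The cause of these changes was not tested. The dsRIP count went from 0 to 1, *unc-120*, over single columns, with voom, and with the replicate block. Features called by dsRIP numbered 873 of 20628, and 3359 with voom, a share close to 1 of 6. For single columns and the replicate block the share of all features is not given here. Spearman's correlation kept 6 of 18 most alike genes.

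With column number as a replicate block, the L3-L4 to young adult count was 2 in total RNA and 0 in dsRIP RNA, and *unc-120* in dsRIP against total RNA had a limma adjusted p of 0.00991. Same-numbered columns correlated over 0.1 in all 3 pairs in 2 of 16 pairs of groups, and the other 14 did not meet this rule. Below it, same-numbered total and dsRIP columns still correlated above other-numbered ones in L1-L2 larvae (0.0796 to 0.208 against -0.137 to 0.0213). In embryos the ranges were 0.0735 to 0.114 and -0.119 to 0.0215. In young adults they overlapped (-0.0483 to 0.245 and -0.148 to 0.168). The rule therefore does not show that columns of these groups were unpaired.

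Differences near 0 changed sign. The dsRIP value of *hnd-1* went from 0.03 to -0.025 with equal medians, and that of *hlh-1* from -0.16 to 0.10 without young adults. The L1-L2 to L3-L4 step over total RNA columns went from 0.29 to -0.11 (pseudocount 5) and -0.095 (voom), and lay at -1.16 to 1.07 with 1 column left out, for *hlh-1*, and from -0.27 to 0.032 (equal medians) for *tbx-2*. In dsRIP RNA that step of *ceh-22* lay at -0.18 to 0.85 with 1 column left out, and the next step of *pha-4* at -0.56 to 0.16. Depth limits *ceh-22*, with 28 reads at most in a sample, and *hnd-1* after the embryo.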
